A study of Rattus norvegicus with 12 samples.

Results

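The genes described are the initiation factors (symbols that start with Eif and a digit) and the elongation factors (Eef and a digit) of protein synthesis in 2 rat liver cell lines. A probe set, the group of short oligonucleotides that reads 1 transcript on the array, was taken as a member where the annotation of the array gave it a single symbol of that form. This rule used no measured value. It gave 93 of 31042 probe sets and 60 of 14217 named genes, and 24 of the genes had more than 1 probe set. A further 5 probe sets carried several symbols, 1 of them of this form, and were left out. An average intensity of at least 100 in 1 group or more was reached by 81 of the 93 probe sets and by 59 of the 60 genes. The exception was Eif4e3, a cap-binding protein related to eIF4E. Where a gene had several probe sets it is described by the one of highest mean, and the others are named where they differed.

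The arrays held RNA of 2 lines, each in 2 groups of 3 plates. WB-F344 is a diploid, non-tumorigenic epithelial line from the liver of an adult male Fischer rat, labelled as rapamycin sensitive with a doubling time of 42 h. WB311 arose spontaneously from WB-F344 and is labelled as tumorigenic, rapamycin resistant and doubling in 15.5 h. The cells of all 4 groups grew in serum, and each plate received DMSO vehicle or 50 nM rapamycin for 24 hr. The question of the design is how rapamycin changed gene expression in a sensitive and a resistant line of 1 origin, which leaves each class of response represented by 1 line. The labels do not say whether plates came from separate cultures, so that p-values measure the spread between plates.

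Translation begins when eIF2 carries the initiator tRNA to the small ribosomal subunit, with eIF3 as the large scaffold, while the eIF4 factors bind the cap of the mRNA. eIF2B reloads eIF2 with GTP, and kinases that phosphorylate eIF2 turn eIF2 into an inhibitor of eIF2B, which lowers initiation under stress. Rapamycin inhibits the mTOR complex that phosphorylates the eIF4E-binding proteins and, through S6 kinase, eIF4B and the kinase of eEF2. The eEF1 factors then bring aminoacyl-tRNA to the ribosome and eEF2 moves it along the mRNA. The arrays measure transcripts only and not phosphorylation, protein or translation.

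Median intensity per array ranged from 59.46 to 62.94. The WB-F344 plates numbered 2 stood apart in RNA quality: the 3′ minus 5′ difference of Gapdh on the log2 scale was 0.343 for the vehicle and 0.166 for the rapamycin plate, against -0.124 to -0.0432 for the other WB-F344 and -0.114 to -0.0415 for the WB311 plates. Members varied more between WB-F344 plates, with a median SD of 0.144 (vehicle) and 0.117 (rapamycin) on the log2 scale, than between WB311 plates (0.0549 and 0.0551). Over all probe sets these were 0.129 and 0.122 in WB-F344 and 0.0912 and 0.0799 in WB311. The labelled epithelial type was only partly borne out by markers. Of 5 epithelial markers 1 reached 100 in vehicle-treated WB-F344 cells and 3 in WB311 cells. Krt8 averaged 2986 and 6103 there, Krt18 averaged 23 and 247, Krt19 averaged 23.1 and 110, and Cdh1 and Epcam stayed below 100 in all groups. Of 4 biliary and progenitor markers Krt7 averaged 5534 and 76.5, Spp1 averaged 282 and 414, and Afp and Prom1 stayed below 100 in all groups. Of 5 hepatocyte markers Ttr averaged 96.9 and 101, and Alb, Apoa1, Tat and Cyp2e1 stayed below 100 in all groups. All 5 mesenchymal markers reached 100 in WB-F344 and 4 of 5 in WB311, 0 of 2 endothelial markers did so in either line, and of 4 leukocyte markers Cd14 alone did.

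Promoter sequences from RefSeq (build GRCr8) are shown here for the genes of eIF2B, the complex that held the largest rapamycin change, and for factors that share an E-box. Of the 60 genes, 55 had an entry, which spans 250 bases before to 50 after the annotated start. The first set gives the 90 bases before the start of each eIF2B gene, 5′ to 3′ on the strand of the gene, with the ETS core CCGGAA, or its reverse complement TTCCGG where it lies on the opposite strand, in capitals. The motif was added to the search after the sequences had been seen.
Eif2b1, chr12:37686485-37686574, plus strand: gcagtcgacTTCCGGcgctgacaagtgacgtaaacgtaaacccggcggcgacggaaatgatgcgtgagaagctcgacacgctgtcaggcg
Eif2b2, chr6:110597889-110597978, plus strand: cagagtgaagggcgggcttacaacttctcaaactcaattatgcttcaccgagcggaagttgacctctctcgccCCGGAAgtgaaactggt
Eif2b3, chr5:135728752-135728841, plus strand: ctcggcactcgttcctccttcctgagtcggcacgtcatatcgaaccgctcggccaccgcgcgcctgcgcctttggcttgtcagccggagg
Eif2b4, chr6:30903149-30903238, plus strand: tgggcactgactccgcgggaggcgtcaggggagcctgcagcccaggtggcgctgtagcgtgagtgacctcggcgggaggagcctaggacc
Eif2b5, chr11:93908801-93908890, minus strand: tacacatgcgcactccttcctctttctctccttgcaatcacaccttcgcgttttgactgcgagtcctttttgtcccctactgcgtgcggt
The core was present in Eif2b1, with its first base at -81 from the start, and in Eif2b2 at -17, and in none of the other eIF2B entries. Over the whole promoter entries it was found in 27 of 55 member genes (49.1%), in 16.5% of all 27457 genes with an entry and in 32.5% of the 7321 of these whose intensity reached 100.

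The second set gives bases -110 to -41 from the start for all 8 factors in which the E-box CACGTG, its own reverse complement and the site bound by Myc and related proteins, lay in that window, where it is set in capitals.
Eef1akmt4, chr11:93804102-93804171, minus strand: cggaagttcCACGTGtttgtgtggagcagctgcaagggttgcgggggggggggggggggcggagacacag
Eef2, chr7:9189279-9189348, minus strand: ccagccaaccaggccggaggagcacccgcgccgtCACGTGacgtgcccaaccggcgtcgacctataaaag
Eef2k, chr1:184824310-184824379, plus strand: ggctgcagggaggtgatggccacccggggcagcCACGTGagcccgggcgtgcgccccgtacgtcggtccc
Eif1b, chr8:129081048-129081117, plus strand: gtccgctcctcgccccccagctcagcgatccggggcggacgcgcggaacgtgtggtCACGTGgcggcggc
Eif3b, chr12:19334809-19334878, minus strand: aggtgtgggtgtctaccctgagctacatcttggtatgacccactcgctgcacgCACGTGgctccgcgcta
Eif3f, chr1:172368952-172369021, plus strand: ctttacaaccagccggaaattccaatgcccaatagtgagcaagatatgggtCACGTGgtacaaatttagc
Eif4e, chr2:229740643-229740712, plus strand: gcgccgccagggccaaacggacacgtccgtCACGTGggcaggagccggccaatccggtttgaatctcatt
Eif4g1, chr11:93746408-93746477, minus strand: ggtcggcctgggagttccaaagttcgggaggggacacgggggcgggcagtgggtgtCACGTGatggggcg
The E-box was found in 12 of 55 member promoters (21.8%), in 7.08% of all entries and in 10.7% of those of expressed genes. These genes were Eif4e, Eif4g1, Eif4h, Eif3a, Eif3b, Eif3f, Eif1b, Eif5a, Eif5a2, Eef2, Eef2k and Eef1akmt4. With rapamycin 1 of the 11 tested rose (Eif3f) and 2 fell (Eif3b and Eef1akmt4) in WB-F344, which is 27.3% against 23.0% of the array, and 0 of 12 were called by limma in WB311 against 3.35%. These shares are near those of the array. The amino acid response element TGATGNAAN was found in 1 member (Eif2s2), the cAMP response element TGACGTCA in 1 (Eef2) and a start with C and 4 further pyrimidines in 1 (Eif2a). A match describes letters only and no binding was measured.

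In WB-F344 cells rapamycin lowered 3 of the 5 subunit transcripts of eIF2B, by 1.24 to 1.95-fold, and raised Eif4b and 3 subunits of eIF3 by 1.21 to 1.43-fold. In WB311 cells Eif4b rose by 1.52-fold and Eif2b4 fell by 1.24-fold. The core elongation factors were not called in either line. A probe set was called where limma gave a Benjamini-Hochberg adjusted p under 0.05 over all tested probe sets and the fold change was at least 1.2. In WB-F344, 12 of 79 tested member probe sets passed (15.2%), 4 higher and 8 lower, against 23.0% of all 13261 probe sets tested (7.74% higher and 15.3% lower). In WB311, 3 of 79 passed (3.8%), 2 higher and 1 lower, against 3.35% of 13135 (1.71% and 1.64%). All arrays shared 1 estimate of the spread, although members varied more between WB-F344 plates than between WB311 plates. Where only the groups compared were fitted, both lines had the same number of member calls, so the contrast between these counts depended on the fit. The median log2 difference of the members was -0.01 in WB-F344 and -0.04 in WB311, where that of all tested probe sets was -0.05 and 0.01. The lower majority in WB-F344 depended on the scaling. With cyclic loess normalization 4 member probe sets rose and 4 fell, the share of falls among calls over the whole array moved from 66.4% to 51.7%, and the median of all tested probe sets from -0.0532 to 0.00689.

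**Figure D1:**
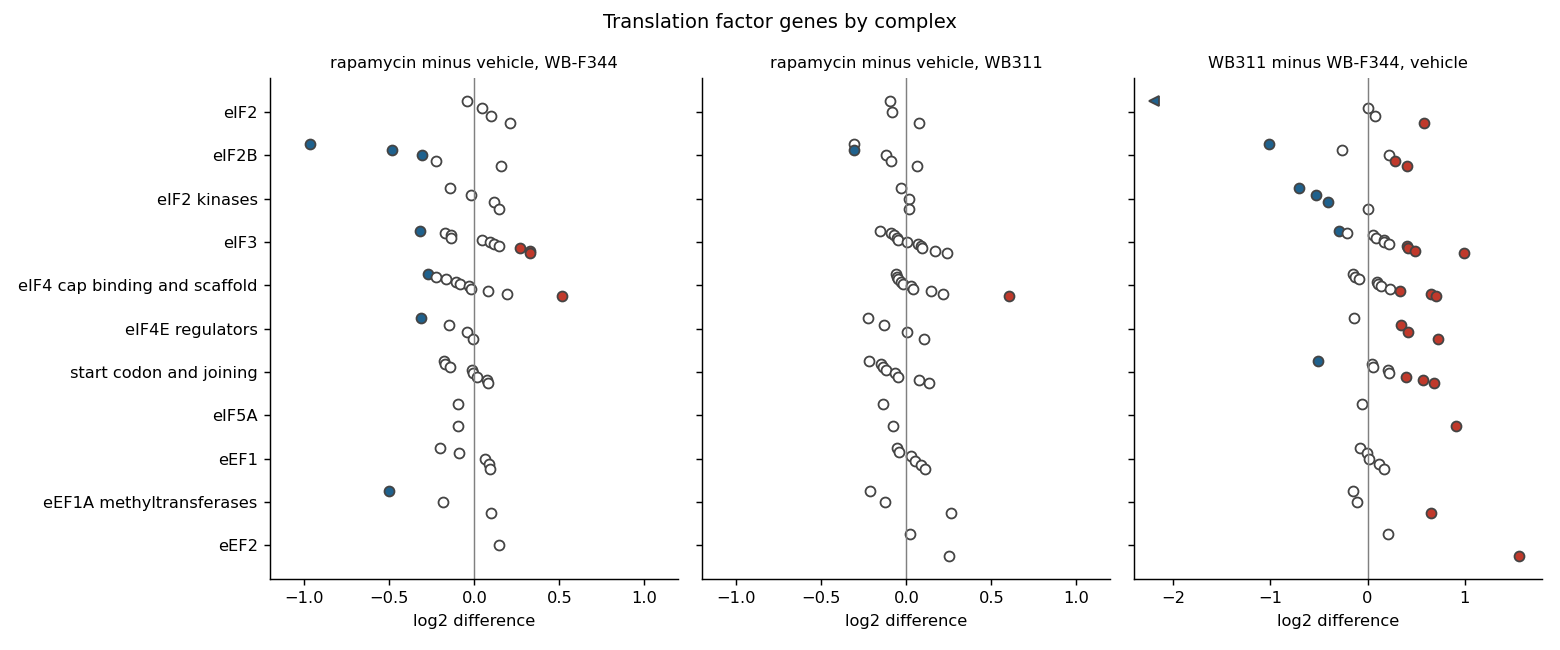
Log2 differences (x axis) of the tested translation factor genes, 1 probe set each, ordered by complex (y axis), for rapamycin minus vehicle in WB-F344 and in WB311 cells and for WB311 minus WB-F344 with vehicle. Filled points were called (red higher, blue lower), open points were not, and the arrowhead marks Eif2s3y at -6.40, beyond the axis. The lowest point of the WB-F344 panel is Eif2b2 in the eIF2B row, followed by Eef1akmt4 at -0.50 and Eif2b4 at -0.48, and the panel of the lines has a wider axis.

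eIF2B is built from 5 subunits, of which the products of Eif2b3 and Eif2b5 form the catalytic part and those of Eif2b1, Eif2b2 and Eif2b4 the regulatory part that senses phosphorylated eIF2. In WB-F344 cells 3 of the 5 genes fell with rapamycin (60% called, against 23.0% of the array) and in WB311 cells 1 did (20% against 3.35%), shares that rest on 5 genes. Eif2b2 read 1986, 1649 and 2049 on the WB-F344 vehicle plates and 995, 907 and 998 with rapamycin. It read 931, 961 and 916 on the WB311 vehicle plates and 932, 1008 and 994 with rapamycin. The 3 vehicle plates of WB-F344 thus lay apart from the 9 other arrays, which spanned 907 to 1008. The fall in WB-F344 was 1.95-fold (log2 difference -0.97, SE 0.0865, adjusted p = 1.69e-05), and the difference in WB311 was 0.06 (SE 0.0865, adjusted p = 0.809).

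Eif2b4 fell in both lines. In WB-F344 it went from 602, 601 and 572 to 411, 446 and 414, a log2 difference of -0.48 (SE 0.0638, adjusted p = 0.000225). In WB311 it went from 794, 751 and 807 to 638, 636 and 628, a log2 difference of -0.31 (SE 0.0638, adjusted p = 0.0227). No vehicle plate overlapped a rapamycin plate of the same line. The call in WB311 held in 7 of 12 fits that each left out 1 array and ended without vehicle plate 1 or 3 or without any 1 of the 3 rapamycin plates, at an adjusted p of up to 0.1.

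Eif2b5 read 436, 457 and 443 with vehicle and 378, 375 and 328 with rapamycin in WB-F344, a log2 difference of -0.31 (SE 0.0714, adjusted p = 0.00731). Leaving out rapamycin plate 3 ended this call, at an adjusted p of 0.0316 but a fold change under 1.2. Its second probe set also fell by 0.31 on the log2 scale (adjusted p = 0.0464), a call that held in 2 of 12 fits with 1 array left out. In WB311 the main probe set read 539, 497 and 517 with vehicle and 479, 490 and 490 with rapamycin, which is -0.09 (adjusted p = 0.605).

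The 2 remaining subunits were not called in either line, although for Eif2b3 in WB311 and for Eif2b1 in WB-F344 this depended on the fit. Eif2b1 differed by -0.23 (SE 0.11, adjusted p = 0.153) in WB-F344, where the plates overlapped, and by -0.12 (adjusted p = 0.667) in WB311. In WB-F344 its adjusted p was 0.0246 with the plate number as a block within lines and 0.0467 without the plates numbered 2 (-0.259). Both stayed under the fold threshold, and Eif2b1 was called in 1 of 12 fits with 1 array left out. Eif2b3 read 601, 550 and 588 with vehicle and 698, 572 and 671 with rapamycin in WB-F344 (0.15, SE 0.0804, adjusted p = 0.184). In WB311 it read 680, 724 and 709 and then 555, 580 and 573, without overlap (-0.31, SE 0.0804, adjusted p = 0.0604). That fall passed without the WB-F344 plates numbered 2, which share the estimate of the spread (adjusted p = 0.00767), with the plate number as a block within lines (0.0222) and in 2 of 12 fits with 1 array left out, where the adjusted p ran from 0.0263 to 0.19.

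**Figure D2:**
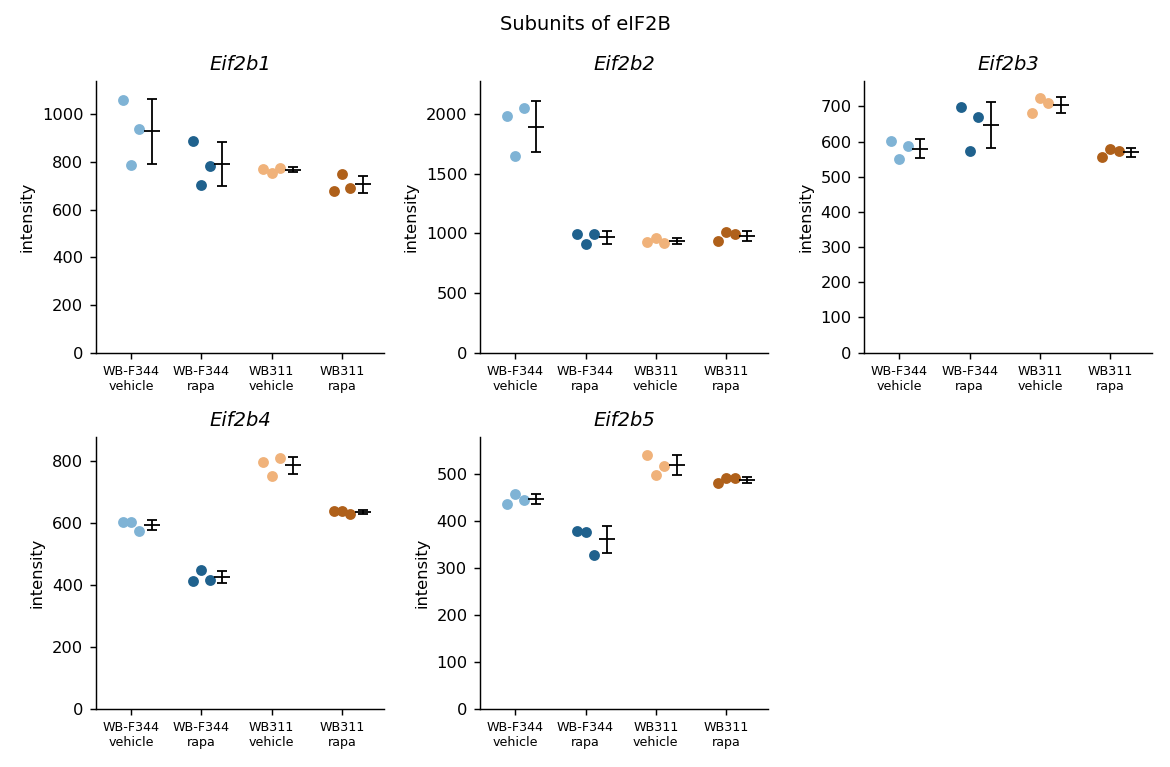
Intensity (y axis, linear and from 0) of the 5 eIF2B subunit transcripts on each of the 12 arrays in the 4 groups (x axis; rapa, rapamycin). Points are plates and the bars beside them give the mean and SD of 3 plates. For Eif2b2 the WB-F344 vehicle plates stand at 1649 to 2049 and all other plates at 907 to 1008.

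No subunit of eIF2 itself was called with rapamycin. Eif2s1, which carries the phosphorylation site, differed by -0.04 in WB-F344 and -0.09 in WB311, and Eif2s2 by 0.10 and -0.09. Eif2s3, the X-linked gene of the subunit that binds GTP and tRNA, differed by 0.04 (adjusted p = 0.677) and 0.07 (adjusted p = 0.686). None of the eIF2 kinases was called. Eif2ak4, the sensor of uncharged tRNA, differed by 0.15 (SE 0.12, adjusted p = 0.41) and 0.02 (SE 0.12, adjusted p = 0.972), and Eif2ak3, the kinase of the endoplasmic reticulum, by -0.14 (SE 0.157) and -0.03 (SE 0.157).

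Of 11 eIF3 genes, 3 rose and 1 fell with rapamycin in WB-F344 (36.4% called, against 23.0% of the array). In WB311, 0 were called by limma, against 3.35% of the array. There 3 had an unadjusted p under 0.05, as did 2232 of all 13135 probe sets tested. Eif3f read 4149, 4238 and 4260 with vehicle and 5304, 5467 and 5072 with rapamycin in WB-F344, a log2 difference of 0.32 (SE 0.0603, adjusted p = 0.00197). In WB311 it read 4472, 4385 and 4570 and then 5297, 5406 and 5168, again without overlap, a difference of 0.24 (SE 0.0603) at an adjusted p of 0.0513. The difference between the lines in this effect was -0.08 (SE 0.0853, adjusted p = 0.627), so a difference was not shown.

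Eif3h, whose product forms a module with those of Eif3f and Eif3m inside eIF3, rose from 4213, 4320 and 4269 to 5469, 5350 and 5209 in WB-F344 (0.32, SE 0.0595, adjusted p = 0.00184). In WB311 it differed by 0.17 (SE 0.0595, adjusted p = 0.16), and the difference between these effects was -0.15 (adjusted p = 0.302). Eif3m rose from 5816, 6190 and 5885 to 7380, 7065 and 7127 in WB-F344, a 1.21-fold change (0.27, SE 0.0609, adjusted p = 0.00629) close to the threshold of 1.2. This call ended, by fold change, without vehicle plate 1 or 3 or rapamycin plate 1, and where arrays were centred on their medians (0.23).

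Eif3b, a core subunit that contacts the small ribosomal subunit, read 1868, 2435 and 1881 with vehicle and 1554, 1810 and 1562 with rapamycin in WB-F344, which is lower by 0.32 on the log2 scale (SE 0.102, adjusted p = 0.0353). The plates numbered 2, with the higher Gapdh 3′ to 5′ difference, were the highest of both groups, and without both of them the adjusted p was 0.0124. The call ended without vehicle plate 2 alone or without rapamycin plate 1 or 3, and without WB311 vehicle plate 1 or rapamycin plate 3, at adjusted p values of up to 0.112. The remaining 7 subunits ranged within -0.18 (Eif3d) and 0.14 (Eif3l) in WB-F344. A second probe set of Eif3l read 2934, 943 and 2467 with vehicle and 3203, 1481 and 2903 with rapamycin, lowest on the plates numbered 2, and was called with the plate number as a block (0.34, adjusted p = 0.0198) but not without it.

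In the eIF4 group, which unwinds and recruits the mRNA, Eif4b moved most among the tested genes in both lines. Eif4b encodes the cofactor of the eIF4A helicases and is a substrate of S6 kinase. It rose from 1112, 989 and 1154 to 1529, 1571 and 1537 in WB-F344, a 1.43-fold rise (0.51, SE 0.0706, adjusted p = 0.000291). In WB311 it rose from 1700, 1732 and 1676 to 2478, 2610 and 2660, a 1.52-fold rise (0.60, SE 0.0706, adjusted p = 0.00136). The groups did not overlap in either line, and both calls held in all 12 fits with 1 array left out. The effects of the lines differed by 0.09 (SE 0.0998, adjusted p = 0.67).

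A second Eif4b probe set changed less. It read 1129, 1313 and 1153 with vehicle and 1217, 1405 and 1260 with rapamycin in WB-F344, where the groups overlapped and it was not called. In WB311 it went from 1764, 1677 and 1777 to 2207, 2220 and 2335, a rise of 0.37 (SE 0.0798, adjusted p = 0.0255). That call ended without any 1 of the 6 WB311 arrays.

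**Figure D3:**
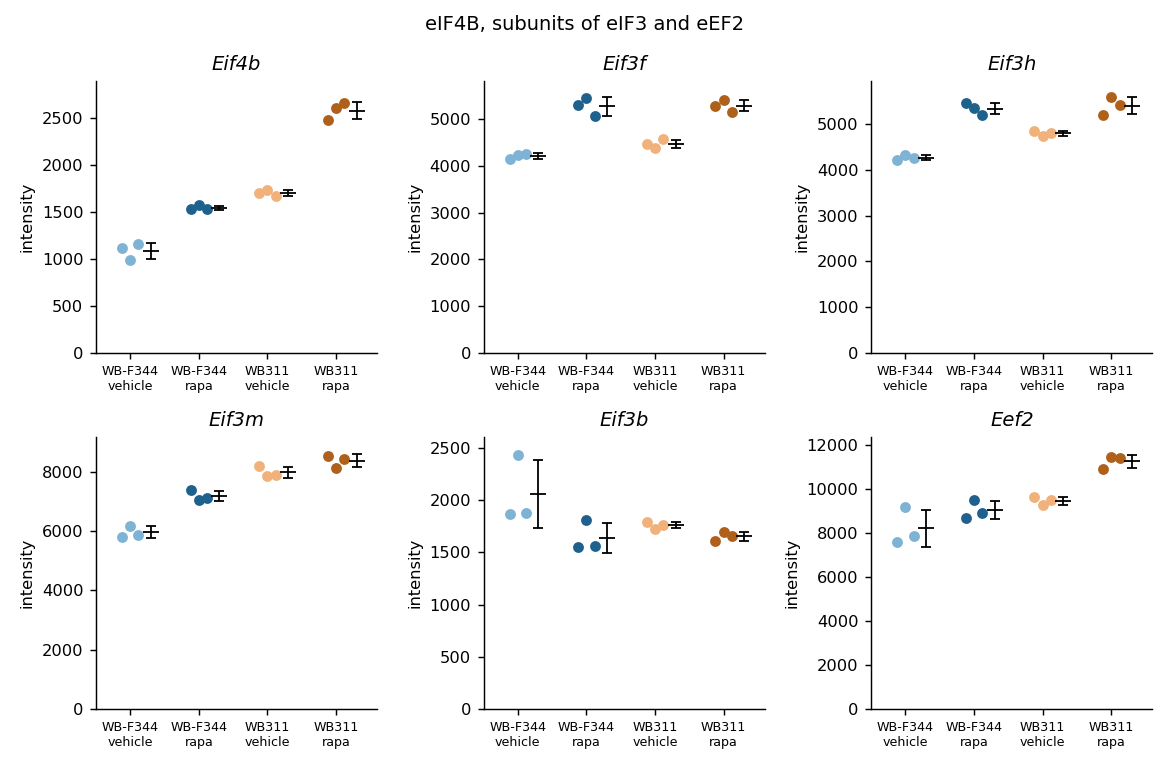
Intensity (y axis, linear and from 0) of Eif4b, 4 subunits of eIF3 and Eef2 on the 12 arrays in the 4 groups (x axis; rapa, rapamycin). Points are plates and the bars give the mean and SD of 3 plates. Eif4b lies higher with rapamycin in both lines, Eif3f, Eif3h and Eif3m were called higher in WB-F344 and not in WB311, and Eef2 was not called.

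The cap-binding protein and its scaffold were not called. Eif4e differed by -0.08 (SE 0.0772, adjusted p = 0.471) in WB-F344 and -0.02 (SE 0.0772, adjusted p = 0.948) in WB311. Eif4g1 differed by -0.23 (SE 0.146, adjusted p = 0.281) and 0.14 (SE 0.146, adjusted p = 0.707), with vehicle plates of 1652, 2405 and 1758 in WB-F344, where plate 2 was again the highest. Eif4e2, a cap-binding protein that takes part in repression, fell from 2091, 1961 and 2225 to 1800, 1686 and 1703 in WB-F344 (-0.27, SE 0.0748, adjusted p = 0.0181). This call ended without vehicle plate 3 or rapamycin plate 2 or 3, at an adjusted p of up to 0.0737, and with cyclic loess normalization (-0.19). Eif4e3, below the limit of 100 and not tested, read 55.2, 64.2 and 58.6 with vehicle and 85.9, 95.9 and 81.5 with rapamycin in WB-F344, a log2 difference of 0.56 (SE 0.097).

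The binding proteins that hold back eIF4E when mTOR is inhibited act through their phosphorylation, which was not measured. Their transcripts were not called with rapamycin. Eif4ebp1 read 2025, 1583 and 2185 with vehicle and 1713, 1694 and 1778 with rapamycin in WB-F344 (-0.15, SE 0.101, adjusted p = 0.319). In WB311 it read 3267, 3149 and 3088 and then 2603, 2752 and 2762, without overlap (-0.23, SE 0.101, adjusted p = 0.277). Without both WB-F344 plates numbered 2, Eif4ebp1 passed in WB-F344 (adjusted p = 0.0188). Eif4ebp2 differed by -0.05 and -0.13. Eif4enif1, which carries eIF4E to the nucleus, was lower by 0.31 on the log2 scale in WB-F344 (SE 0.105, adjusted p = 0.0463), although its plates overlapped (519, 650 and 548 against 435, 539 and 412). That call held in 2 of 12 fits with 1 array left out, those without vehicle plate 1 or rapamycin plate 2, and otherwise reached an adjusted p of up to 0.173.

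No gene of start codon selection and subunit joining (Eif1a, Eif1ad, Eif1ax, Eif1b, Eif2a, Eif2d, Eif5b, Eif6) and neither eIF5A gene was called with rapamycin. Their log2 differences ran from -0.18 to 0.08 in WB-F344 and from -0.22 to 0.13 in WB311.

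The elongation factors gave no call with rapamycin among the 6 eEF1 genes and the 2 genes of eEF2 and its kinase. Eef1a2 was under 100 in both WB-F344 groups and was not tested there (0.27, SE 0.0933, without overlap). Eef1d differed by -0.20 (SE 0.0619, adjusted p = 0.0291) in WB-F344, without overlap but under the fold threshold, and by -0.06 in WB311. Eef1a1, which delivers aminoacyl-tRNA, differed by 0.08 (SE 0.0603, adjusted p = 0.339) in WB-F344 and 0.03 (SE 0.0603, adjusted p = 0.902) in WB311. Eef2, the translocase, read 7601, 9165 and 7871 with vehicle and 8680, 9507 and 8921 with rapamycin in WB-F344 (0.14, SE 0.0782, adjusted p = 0.211). In WB311 it read 9633, 9263 and 9502 and then 10897, 11444 and 11404, all above the vehicle plates, at a difference of 0.25 (SE 0.0782, adjusted p = 0.114). Without the WB-F344 plates numbered 2 the adjusted p of this rise was 0.019, and only the fold change of 1.19 kept it from a call. Eef2k, the kinase that inhibits eEF2, was under 100 in both WB-F344 groups and was not tested there, and differed by 0.02 (SE 0.191) in WB311. Eef1akmt4, annotated as a lysine methyltransferase of eEF1A, fell from 274, 297 and 249 to 213, 189 and 177 in WB-F344 (-0.50, SE 0.101, adjusted p = 0.00315) and differed by -0.21 (adjusted p = 0.319) in WB311. Eef1akmt1, of the same family, went the other way in WB311, from 403, 369 and 406 to 454, 478 and 482. There was no overlap and no call (0.26, SE 0.069, adjusted p = 0.0605). This rise passed without the WB-F344 plates numbered 2 (adjusted p = 0.0244), with the plate number as a block within lines (0.0484) and in 1 of 12 fits with 1 array left out. In WB-F344 Eef1akmt1 differed by 0.10 (adjusted p = 0.322).

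The difference of the rapamycin effects, WB311 minus WB-F344, was called for 2 of 81 member probe sets (2.47%), 1 higher and 1 lower, against 10.0% of all 14214 tested (6.87% higher and 3.15% lower). Both were eIF2B subunits. Eif2b2 had a difference of 1.03 (SE 0.122, adjusted p = 0.00037), since it fell in WB-F344 and not in WB311, and the call held in all 12 fits with 1 array left out. Eif2b3 had a difference of -0.46 (SE 0.114, adjusted p = 0.0227), with a positive estimate in WB-F344 and a negative one in WB311, neither of them called with all arrays and no block. It ended without WB-F344 rapamycin plate 1 or 3, WB311 vehicle plate 2 or WB311 rapamycin plate 1 or 3, at an adjusted p of up to 0.0593. With the plate number as a block within each line, 6 member probe sets were called and Eif2b3 reached an adjusted p of 0.00834. The further 4 were Eif4g1 (0.37), Eif4enif1 (0.32), a second probe set of Eif2b5 (0.43) and a lesser probe set of Eif1a (-0.49).

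The rapamycin effects of the lines come from separate arrays and can be set side by side. Over the 55 member genes tested in both, Pearson's r was 0.507 and Spearman's rho 0.505. Without Eif2b2, left out with its values known, they were 0.65 and 0.545. Over all 12182 probe sets tested in both lines they were 0.246 and 0.257. The members entered with 1 probe set a gene, that of highest mean, and the array with every tested probe set, so these sets are not alike. The coefficients are descriptions across genes, which are not independent replicates and share the normalization of the arrays. Of the 11 genes called in WB-F344, Eif4b and Eif2b4 were also called in WB311, where 3.35% of all tested probe sets were called. The overlap of calls over the whole array is not given here, so that of the members is a description only.

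**Figure D4:**
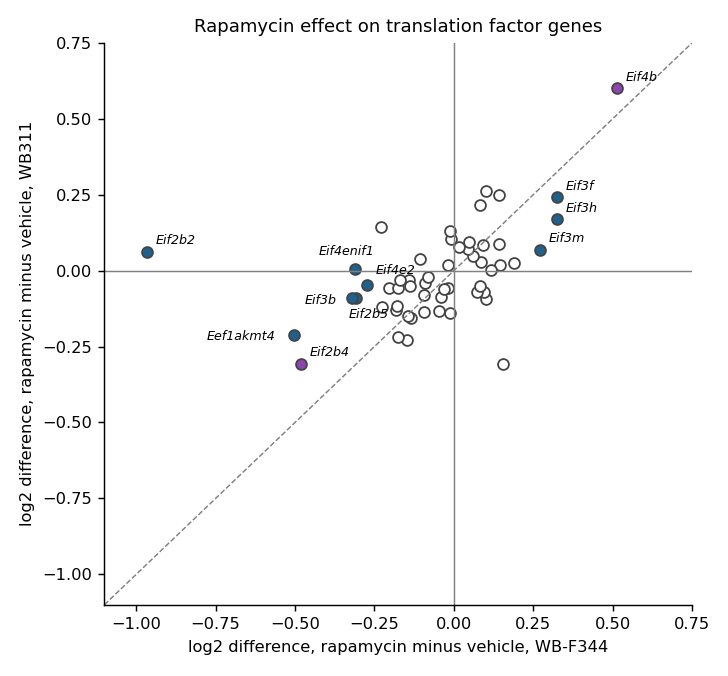
Log2 difference with rapamycin in WB311 (y axis) against that in WB-F344 (x axis) for the 55 translation factor genes tested in both lines. Blue points were called in WB-F344, purple points in both lines and open points in neither, and the dashed line marks equal effects. Eif4b and Eif2b4 lie near the dashed line, and Eif2b2 lies at -0.97 and 0.06.

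Other genes of the pathway, outside the 2 families, were taken from a list of 32 genes on the array, of which 30 were tested. Besides regulators of these factors the list held release factors and mitochondrial translation factors. In WB-F344, 7 were called (23.3%, against 23.0% of the array), 3 higher and 4 lower, so that the list was called about as often as the array as a whole. In WB311 none was called by limma, against 3.35% of the array. There 7 had an unadjusted p under 0.05, as did 2232 of all 13135 probe sets tested. Pdcd4, an inhibitor of the eIF4A helicase that is degraded after phosphorylation by S6 kinase, rose by 0.61, and Paip2, an inhibitor of the poly(A)-binding protein, by 0.56. Impact, an inhibitor of the eIF2 kinase encoded by Eif2ak4, rose by 0.31. The falls were those of Mknk2, a kinase of eIF4E (-0.49), Tufm, the mitochondrial elongation factor (-0.35), the helicase Dhx29 (-0.33) and Dhps (-0.30), which modifies eIF5A. The effect on Pdcd4 was lower in WB311 by 0.63 (adjusted p = 0.0241) and that on Paip2 by 0.39 (adjusted p = 0.0114), which were the 2 calls of the list in the difference of the effects.

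Between the lines, with vehicle, most of the translation factors that were called were higher in WB311. Of 80 tested member probe sets 34 were called (42.5%), 26 higher and 8 lower in WB311, against 56.0% of all 13871 tested (27.9% higher and 28.1% lower). The median log2 difference was 0.19 over the members and 0.02 over all. By gene, 26 of 58 were called, 19 higher and 7 lower. The WB-F344 vehicle plates also serve as controls of the rapamycin effect in that line and of the difference of the effects, so that these comparisons are not independent.

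The largest difference was that of Eif2s3y, the Y-linked copy of the gene of the eIF2 subunit that binds GTP. It read 798, 745 and 672 on the vehicle and 788, 779 and 1002 on the rapamycin plates of WB-F344, and 8.67, 8.53 and 8.91 on the vehicle plates of WB311, near the lowest value of the table (7.78). The log2 difference was -6.40 (SE 0.13, adjusted p = 1.19e-12), a size that depends on the background of the array. Its X-linked counterpart Eif2s3 read 1273, 1300 and 1184 in WB-F344 and 1394, 1245 and 1325 in WB311, with overlap (0.08, SE 0.0685, adjusted p = 0.346). Another Y-linked gene, Uty, averaged 281 and 313 on 1 probe set and 20.1 and 18.4 on another, and Sry and Tspy1 averaged 10.6 to 17.5, in the vehicle groups. Of the other eIF2 subunits Eif2s2 was higher in WB311 by 0.58 (adjusted p = 1.07e-05) and Eif2s1 differed by 0.01.

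Of the 4 eIF2 kinases, 3 were lower in WB311 (75% lower, against 28.1% of the array). Eif2ak3 read 204, 284 and 198 in WB-F344 and 141, 119 and 157 in WB311 (-0.71, SE 0.157, adjusted p = 0.00186). Eif2ak2, the kinase activated by double-stranded RNA, was lower by 0.53 (SE 0.144, adjusted p = 0.00626) with an average just under 100 in WB311, and Eif2ak1, the heme-regulated kinase, by 0.41 (SE 0.0715, adjusted p = 0.000336). Eif2ak4 differed by 0.00 (SE 0.12, adjusted p = 0.984).

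Within eIF2B the subunits went in opposite directions. Eif2b2 was lower in WB311 by 1.01 (SE 0.0865, adjusted p = 6.2e-07), while Eif2b4 was higher by 0.41 (SE 0.0638, adjusted p = 0.000135) and Eif2b3 by 0.28 (SE 0.0804, adjusted p = 0.00896). The Eif2b3 call ended, by fold change, without the WB-F344 plates numbered 2 (0.24), and also without vehicle plate 2 of either line. Eif2b5 differed by 0.22 (adjusted p = 0.0196), under the fold threshold, and Eif2b1 by -0.27 (adjusted p = 0.0524).

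In eIF3, 4 of 11 genes were higher in WB311 and 1 was lower, a share called of 45.5% against 56.0% of the array. Eif3i read 2398, 2172 and 2232 in WB-F344 and 4501, 4548 and 4496 in WB311, a 1.99-fold difference (SE 0.0734 on the log2 scale, adjusted p = 1.51e-07). Eif3j (0.49), Eif3m (0.42) and Eif3a (0.41) were higher and Eif3k was lower by 0.29. The rest ranged from -0.21 (Eif3b) to 0.22 (Eif3c).

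**Figure D5:**
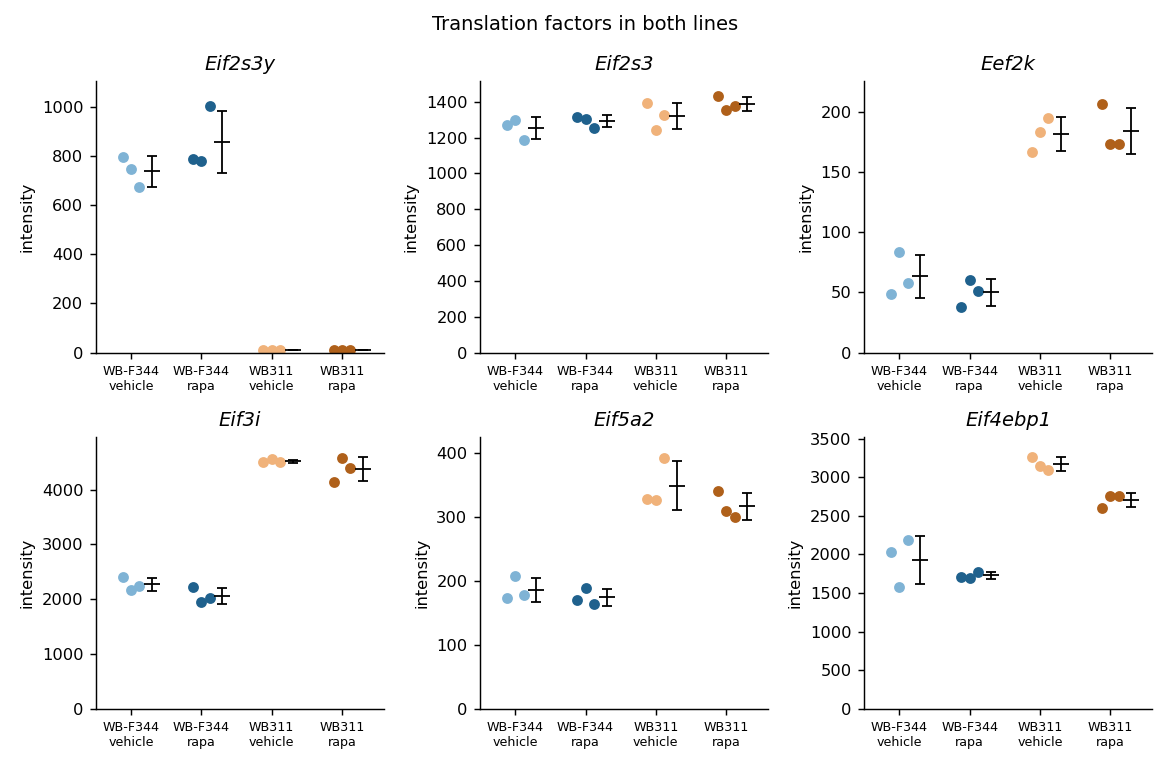
Intensity (y axis, linear and from 0) of 6 factors on the 12 arrays in the 4 groups (x axis; rapa, rapamycin), with the mean and SD of 3 plates beside the points. Eif2s3y lies near 0 on all WB311 plates while Eif2s3 overlaps between the lines, and Eef2k, Eif3i, Eif5a2 and Eif4ebp1 lie higher on all WB311 plates than on any WB-F344 plate.

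All 3 genes of eIF4E-binding proteins were higher in WB311, where 27.9% of the array was called higher. Eif4ebp1 was higher by 0.73 (SE 0.101, adjusted p = 4.89e-05), Eif4ebp3 by 0.42 (adjusted p = 0.00958) and Eif4ebp2 by 0.35 (SE 0.113, adjusted p = 0.0177). The call of Eif4ebp2 ended without WB-F344 vehicle plate 3 or WB311 vehicle plate 1, at an adjusted p of up to 0.0824. Their target Eif4e differed by 0.11 (SE 0.0772, adjusted p = 0.249).

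In the rest of the eIF4 group Eif4b was higher by 0.65 (SE 0.0706, adjusted p = 5.21e-06), and its second probe set by 0.54. Eif4g3, a scaffold related to eIF4G1, read 206, 430 and 227 in WB-F344 and 471, 387 and 476 in WB311, with overlap through plate 2 of WB-F344 (0.71, SE 0.266, adjusted p = 0.0362). This call ended without plate 1 or 3 of either vehicle group, at an adjusted p of up to 0.141, and without both WB-F344 plates numbered 2 the adjusted p was 1.32e-06. Eif4g2, a scaffold that does not bind eIF4E, was higher by 0.34 and by 0.67 on 2 probe sets, while another differed by -0.17 without a call. Eif4g1 differed by -0.15 (SE 0.146, adjusted p = 0.378).

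Among the factors of start codon selection and joining, Eif2a (0.69, SE 0.118), Eif5b (0.57, SE 0.191) and Eif1a (0.39, SE 0.0732) were higher in WB311 and Eif1b (-0.51, SE 0.0752) was lower. The Eif5b call held in 8 of 12 fits with 1 array left out. Eif5a2, the less widely expressed of the eIF5A genes, which carry the hypusine residue, read 173, 208 and 178 in WB-F344 and 329, 326 and 393 in WB311 (0.91, SE 0.101, adjusted p = 7.09e-06). Eif5a differed by -0.06.

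Of the elongation factors, 0 of 5 tested eEF1 genes were called by limma, against 56.0% of the array. There 1 had an unadjusted p under 0.05, as did 9031 of all 13871 probe sets tested. Eef1a1 differed by 0.11 (SE 0.0603, adjusted p = 0.121) and Eef2 by 0.21 (SE 0.0782, adjusted p = 0.0343), under the fold threshold. Without both WB-F344 plates numbered 2, or in 1 of the 12 fits with 1 array left out, Eef2 passed. Eef2k read 48.9, 83.1 and 57.8 in WB-F344, under the limit of 100, and 167, 183 and 195 in WB311, a difference of 1.55 (SE 0.191, adjusted p = 1.68e-05) that rests on a group near background. Eef1akmt2, annotated as another methyltransferase of eEF1A, was higher by 0.65 (SE 0.113, adjusted p = 0.0003).

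The pathway list had 16 of its 30 tested genes called between the lines, with 11 above and 5 below WB-F344, a share of 53.3% against 56.0% of the array. The range ran from Ppp1r15a at -1.22, which encodes the regulatory subunit of the phosphatase that reverses eIF2 phosphorylation, to Gigyf2 at 0.96, a partner of Eif4e2. Pdcd4 was higher by 0.68 and Gspt1, a release factor, was lower by 0.60.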

How the data were processed

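Affymetrix Rat Genome 230 2.0 arrays were hybridized by the authors with total RNA of 12 plates. The deposited table holds intensities on a linear scale after Robust Multiarray Average (version not given in the sources used here), and log2 was taken from them here. All data columns matched a sample (0 left over). The annotation of the array gave 20826 probe sets 1 symbol, 436 several and 9780 none, and 57 control probe sets were left out. No member symbol differed from its current RefSeq symbol.

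The 4 groups of 3 arrays were fitted in 1 model with limma 3.58.1 in R 4.3.3, with variances moderated over all 31042 probe sets. A probe set was tested where a group compared averaged at least 100, and called at a Benjamini-Hochberg adjusted p under 0.05 and a fold change of at least 1.2. These limits are those of the study, whose methods' t-test was run as an alternative at equal variances. The study left out changes under 1.2-fold before its tests. Here the fold change limit was applied after the correction, also with the t-test, except in the setting with the fold change filter first. The fit was tested on simulated data. Precision is limited by 3 arrays per group.

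Members, lists and rules were chosen with earlier results of these data known. Named genes are, in each comparison, the called members with the largest rises and falls, up to 8 in each direction, and fixed key factors. Further called members are named to account for their complex and were chosen after their values were seen.

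Plates of WB-F344 with 1 number deviated together, with correlations of 0.561 to 0.871 between vehicle and rapamycin plates. This pairing comes from the data, since the labels give a number only. In WB311 these were -0.139 to -0.000258. Promoters were searched with Python 3.11.15. Alternatives covered the filter, normalization, arrays fitted, order of filters, plate number and each array left out. Variances moderated over tested probe sets only, and the ETS core, were added after seeing the data.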

Additional observations from a re-analysis of the deposited data

Results flagged for a closer look

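The rapamycin effect differed between the lines, by limma's test of the difference itself, for 2 member genes. Eif2b2 had a difference of 1.03 on the log2 scale (WB311 minus WB-F344), and Eif2b3 a difference of -0.46. For Eif2b2 the WB-F344 vehicle plates, at 1649 to 2049, were the only arrays outside 907 to 1008. For Eif2b3 the effects had opposite signs (0.15 in WB-F344 and -0.31 in WB311) and neither was called alone with all arrays and no block. The fall in WB311 passed without the WB-F344 plates numbered 2 (adjusted p = 0.00767) and with the plate number as a block within lines (adjusted p = 0.0222).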

How the results depend on the processing

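Single values were followed only for probe sets called in the main fit, and between the lines for a part of these. Of these values under the other settings, 0 reversed. In WB-F344, 110 of 132 kept their side of the threshold and 22 lost it, and in the difference of the effects all 18 kept it. With 1 array left out, 32 of 144 values lost it in WB-F344 and 11 of 36 in WB311. In the difference of the effects 5 of 24 did so, and between the lines 8 of 216. The 12 calls in WB-F344 became 6 when only the groups compared were fitted and 6 with the methods' t-test, and the cause was not tested. The 3 calls in WB311 became 6 with only the groups compared, 5 with the fold change filter first, 7 without the WB-F344 plates numbered 2 and 5 with variances moderated over the tested probe sets. With the plate number as a replicate block within each line, calls were 14 in WB-F344, 5 in WB311 and 6 in the difference of the effects. In WB311 the plates shared a number only, and in WB-F344 only the plates numbered 2 stood apart from the others. Between the lines the 34 calls became 37 with the block over all arrays, 24 with the methods' t-test and 39 with no filter. Leaving out 1 array at a time gave 7 to 12 calls in WB-F344, the fewest without rapamycin plate 3. It gave 1 to 5 in WB311, with 5 without WB-F344 vehicle plate 2 and 1 without WB311 vehicle plate 1 or 3 or any WB311 rapamycin plate. It gave 1 to 3 in the difference of the effects and 31 to 38 between the lines. Genes near an intensity of 100 (Eef2k, Eif2ak2) were untested at a limit of 200.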
